A study of Homo sapiens with 12 samples.

Results

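Mitochondrial ribosomal protein genes are described here across 2 culture formats and acetaminophen exposure in a human liver cell line. The genes were chosen by symbol: every probe set that the array annotation pairs with exactly 1 symbol made of MRPL or MRPS and a number, with an optional final letter and no pseudogenes. This gave 73 genes of 18404 genes on the array (74 probe sets of 32321), and where a gene had several probe sets the one with the highest mean over the 12 arrays was used. A filter on low values left 71 of the 73 genes among 13199 genes tested.

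HepG2C3A is an established hepatoma line, and its RNA was hybridised to Affymetrix Human Gene 1.0 ST arrays. The microsystem treated group was cultured in a microsystem and exposed to acetaminophen, the microsystem control group was cultured in the microsystem without it, the Petri treated group was cultured in Petri dishes and exposed to acetaminophen, and the Petri control group was cultured in Petri dishes without it. Each group had 3 arrays, culture lasted 96 h in all groups, and exposure in the treated groups lasted 72 h. An asterisk of unstated meaning ends the description of Petri treated replicate 3. The acetaminophen dose and the build of the microsystem are not stated by the labels. Nor do the labels state that replicates are separate cultures, and every p-value therefore reflects the spread among these arrays alone, some or all of which may be technical.

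The mitochondrial ribosome translates the few mRNAs of the mitochondrial genome, which encode core subunits of the respiratory chain and ATP synthase. All of its proteins are encoded in the nucleus, made in the cytosol and imported, and they join RNAs transcribed inside the mitochondrion to form a large and a small subunit. Some have a counterpart in bacterial ribosomes, and others are found only in mitochondrial ribosomes. Acetaminophen is an analgesic whose reactive metabolite is known to bind mitochondrial proteins of hepatocytes at toxic doses.

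Values are log2 intensities per probe set, so a difference of 1 is a doubling, and levels of different probe sets are not set against each other. A gene is said to have risen or fallen where limma's adjusted p was under 0.05. Array medians lay between 5.56 and 5.63, and arrays of 1 group correlated at r of 0.991 to 0.995 over all probe sets. The hepatocyte genes ALB, APOA1, APOB, TTR, SERPINA1, TF and AFP were above the 97th percentile on every array. FGB was lower, at the 57.3rd to 72.5th percentile. PTPRC, CD3E, PECAM1, VWF, CDH5, KDR and DCN, markers of leukocytes, endothelium and fibroblasts, did not pass the filter. CD68 did, with means of 8.20 in microsystem treated cells, 8.16 in microsystem controls, 9.41 in Petri treated cells and 9.21 in Petri controls, and CD14, COL1A1, COL1A2, COL3A1 and PDGFRB passed at the 41.8th to 60.8th percentile. Their part in the results was not tested. Fewer cells of a kind and less RNA per cell cannot be told apart in these samples.

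Over the mitochondrial ribosomal protein genes the microsystem control arrays had mean log2 values of 8.16, 8.34 and 8.34, against 8.0, 8.02 and 8.04 on the Petri control arrays. Microsystem treated arrays had 8.13, 8.04 and 8.14, against 7.92, 8.03 and 8.02 on the Petri treated arrays. The microsystem arrays lay above the Petri arrays of the same treatment on this mean, but microsystem treated replicate 2 and Petri control replicate 3 were both at 8.04. Over all genes tested the means were 7.29, 7.34 and 7.30 on microsystem controls, against 7.26, 7.27 and 7.27 on Petri controls. They were 7.33, 7.33 and 7.34 on microsystem treated arrays, against 7.29, 7.32 and 7.31 on Petri treated arrays. On the median of the mitochondrial ribosomal protein genes, microsystem treated replicate 2 (8.15) was below Petri treated replicate 2 (8.17) and Petri control replicates 2 (8.19) and 3 (8.16). The arrays of a group did not move as 1 block. On microsystem control replicate 1, 7 of 71 genes were above their group mean, with a median deviation of -0.11. On microsystem treated replicate 2 and on Petri treated replicate 1, the number was 13 of 71 each. The first principal component of these genes held 62.9% of their variance and the second 17.9%. Over all genes tested the shares were 63.7% and 14.4%.

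**Figure D1:**
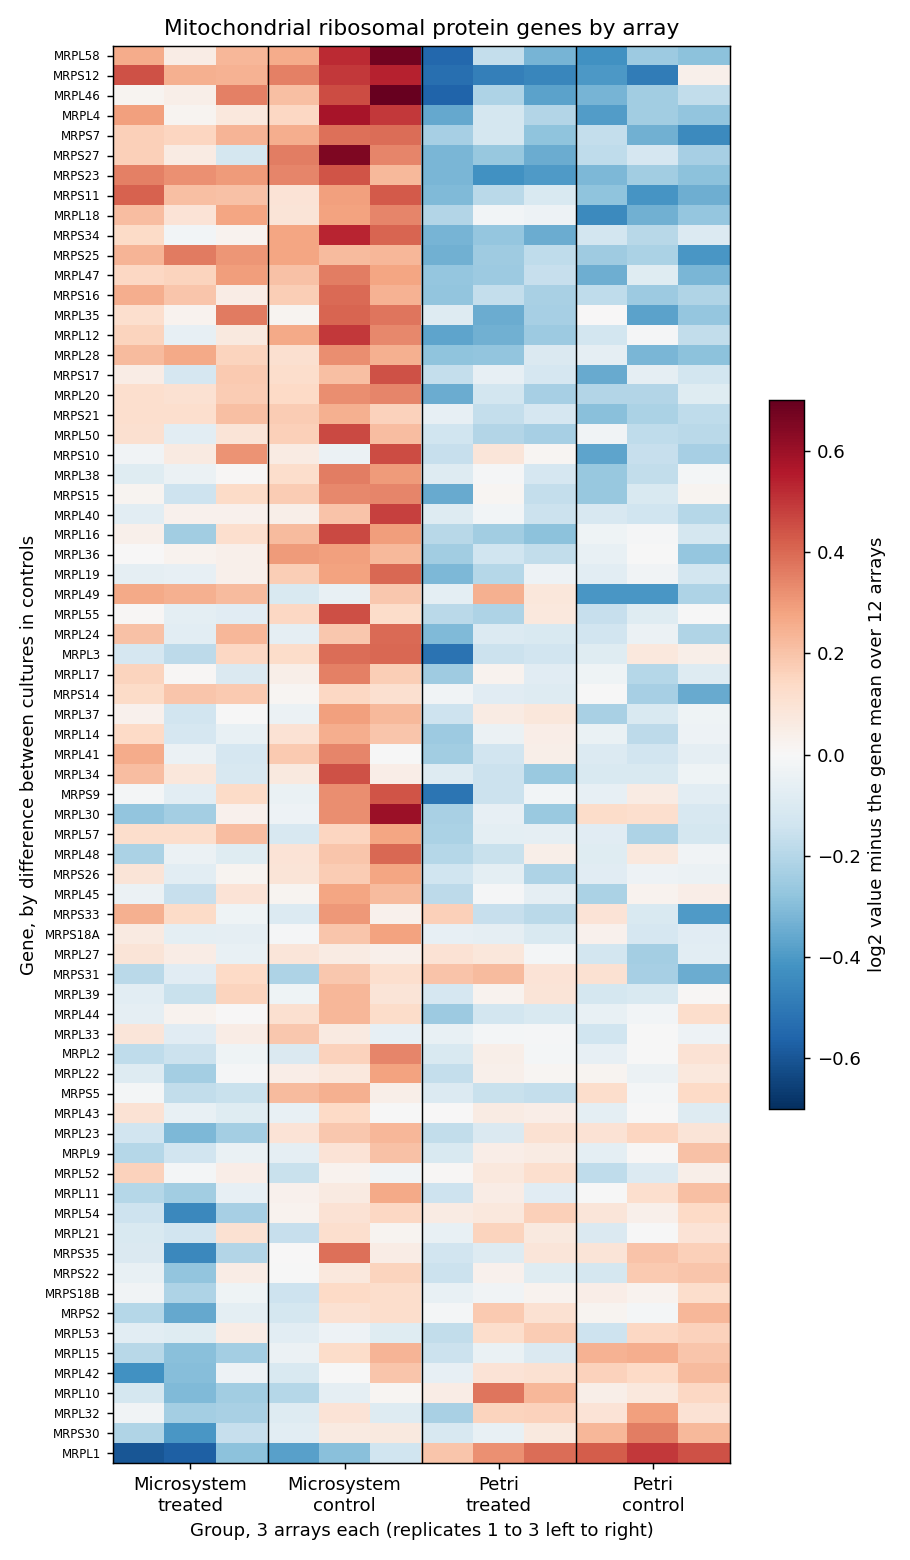
Each cell is the log2 value of 1 gene on 1 array minus that gene's mean over the 12 arrays (red above, blue below). Columns are arrays in 4 groups of 3, and genes are ordered by the difference between cultures in controls. The upper genes are red in the microsystem and blue in Petri dishes, and MRPL1 at the foot is the other way round.

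The first comparison asked how the microsystem differed from Petri dishes in cells without acetaminophen. Many of the genes were higher in the microsystem: 35 of 71 rose (49.3%) and 2 fell, while 26.5% of all genes tested rose and 18.3% fell. The median difference was 0.27 over these genes and 0.01 over all genes tested, and 59 of 71 differences were above 0 (83.1%, against 51.6% of all genes). Among genes of the large subunit, where MRPS30 and MRPS18A are counted, 21 of 49 rose and 2 fell, with a median of 0.25. Among genes of the small subunit 14 of 22 rose and none fell, with a median of 0.41. Within the large subunit, 14 of 29 genes with a bacterial counterpart rose and 1 fell, and 7 of 20 mitochondria-specific genes rose and 1 fell. Within the small subunit, 9 of 12 with a bacterial counterpart and 5 of 10 mitochondria-specific genes rose.

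The largest rise was that of MRPL58 (probe set 8009727), also known as ICT1, a peptidyl-tRNA hydrolase built into the large subunit that is linked to the rescue of stalled ribosomes. MRPL58 had 8.12, 8.39 and 8.54 in microsystem controls, against 7.44, 7.61 and 7.58 in Petri controls. All 3 microsystem controls were above all 3 Petri controls. The difference was 0.81 ± 0.12 (SE, limma adjusted p = 0.000121), a 1.75-fold rise.

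MRPS12 (8028563) is the small subunit protein at the decoding centre. MRPS12 had 7.10, 7.24 and 7.29 in microsystem controls, against 6.34, 6.26 and 6.78 in Petri controls. The groups did not overlap, and 1 Petri control stood apart from the other 2. The difference was 0.75 ± 0.12 (limma adjusted p = 0.000222).

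MRPL46 (7991209), a mitochondria-specific large subunit protein, had 8.71, 8.96 and 9.31 in microsystem controls, against 8.17, 8.26 and 8.33 in Petri controls. MRPL46 was higher on every microsystem control, and the spread was wider there. It rose by 0.74 ± 0.14 (limma adjusted p = 0.00088).

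MRPL4 (8025586), whose bacterial counterpart reaches into the peptide exit tunnel, had 7.52, 7.95 and 7.87 in microsystem controls, against 6.98, 7.13 and 7.10 in Petri controls. The lowest microsystem control was above the highest Petri control. Its rise was 0.71 ± 0.11 (limma adjusted p = 0.000253).

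MRPS7 (8009784), a protein of the small subunit head, had 8.71, 8.84 and 8.85 in microsystem controls, against 8.29, 8.12 and 8.01 in Petri controls. MRPS7 did not overlap between the groups. The rise was 0.66 ± 0.09 (limma adjusted p = 4.45e-05).

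The other 30 genes that rose differed by 0.21 to 0.63, with limma adjusted p-values of 2.6e-05 to 0.0378. In the large subunit they were MRPL12, MRPL14, MRPL16, MRPL17, MRPL18, MRPL19, MRPL20, MRPL27, MRPL28, MRPL35, MRPL36, MRPL37, MRPL38, MRPL40, MRPL47, MRPL49, MRPL50 and MRPL55. In the small subunit they were MRPS10, MRPS11, MRPS14, MRPS15, MRPS16, MRPS17, MRPS21, MRPS23, MRPS25, MRPS26, MRPS27 and MRPS34. MRPL36 was the gene with 2 probe sets, which did not go together: the one used rose by 0.38, and the other (8110861) differed by -0.07. Between cultures in treated cells the one used differed by 0.21 and the other by -0.34.

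MRPL1 went the other way. It is the counterpart of the bacterial protein of the mobile stalk beside the tRNA exit site. MRPL1 (8095894) had 7.34, 7.43 and 7.58 in microsystem controls, against 8.14, 8.21 and 8.16 in Petri controls. Every microsystem control was below every Petri control, by a margin wider than the spread within either group. The difference was -0.72 ± 0.10 (limma adjusted p = 5.91e-05), a 1.65-fold fall. MRPS30 (8105181), named for the small subunit and placed in the large one by structures of the mammalian mitochondrial ribosome, had 8.20, 8.34 and 8.34 in microsystem controls, against 8.50, 8.63 and 8.50 in Petri controls. Its groups were close and did not overlap. The difference was -0.25 ± 0.09 (limma adjusted p = 0.0306). It did not pass without microsystem control replicate 1 (-0.21, adjusted p = 0.104) or Petri control replicate 2 (-0.21, adjusted p = 0.115).

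Of the genes named whatever their values, MRPL12 and MRPL37 also rose. MRPL12, the stalk protein that recruits translation factors and also binds the mitochondrial RNA polymerase, differed by 0.47 ± 0.09 (limma adjusted p = 0.000741). MRPL37, a mitochondria-specific protein, differed by 0.28 ± 0.10 (limma adjusted p = 0.0378), with overlapping groups. MRPL37 did not pass without microsystem control replicate 2 (0.22, adjusted p = 0.147) or 3, or Petri control replicate 1 or 2. MRPL3, which lies near the peptidyl transferase centre, had a difference of 0.30 ± 0.12 with a 95% interval of 0.03 to 0.56 and did not pass after adjustment (limma adjusted p = 0.0628). MRPL41 (0.27 ± 0.11, limma adjusted p = 0.0701), MRPS18A (0.21 ± 0.09, adjusted p = 0.0602) and MRPS2 (-0.04 ± 0.10, adjusted p = 0.762) did not pass either. Counted by arrays instead of by the fit, 38 genes were higher on every microsystem control and 4 lower on every one, while 29.5% and 22.9% of all genes tested were.

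The same comparison in acetaminophen-treated cells gave fewer calls. Of 71 genes 20 rose (28.2%) and 5 fell (7.04%), while 22.6% of all genes tested rose and 18.9% fell. The median difference was 0.14, and that of all genes was -0.00. In the small subunit 10 of 22 genes rose and 1 fell, and in the large subunit 10 of 49 rose and 4 fell. A total of 19 genes rose in both comparisons, which is 54.3% of those that rose in controls and 95% of those that rose in treated cells. This overlap was not counted over all genes tested, so it is not shown to be particular to these genes. Across the 71 genes the culture differences in treated and in control cells, which share no array, had r = 0.909, and 58 of 71 had the same sign. Neither value was computed over all genes tested.

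**Figure D2:**
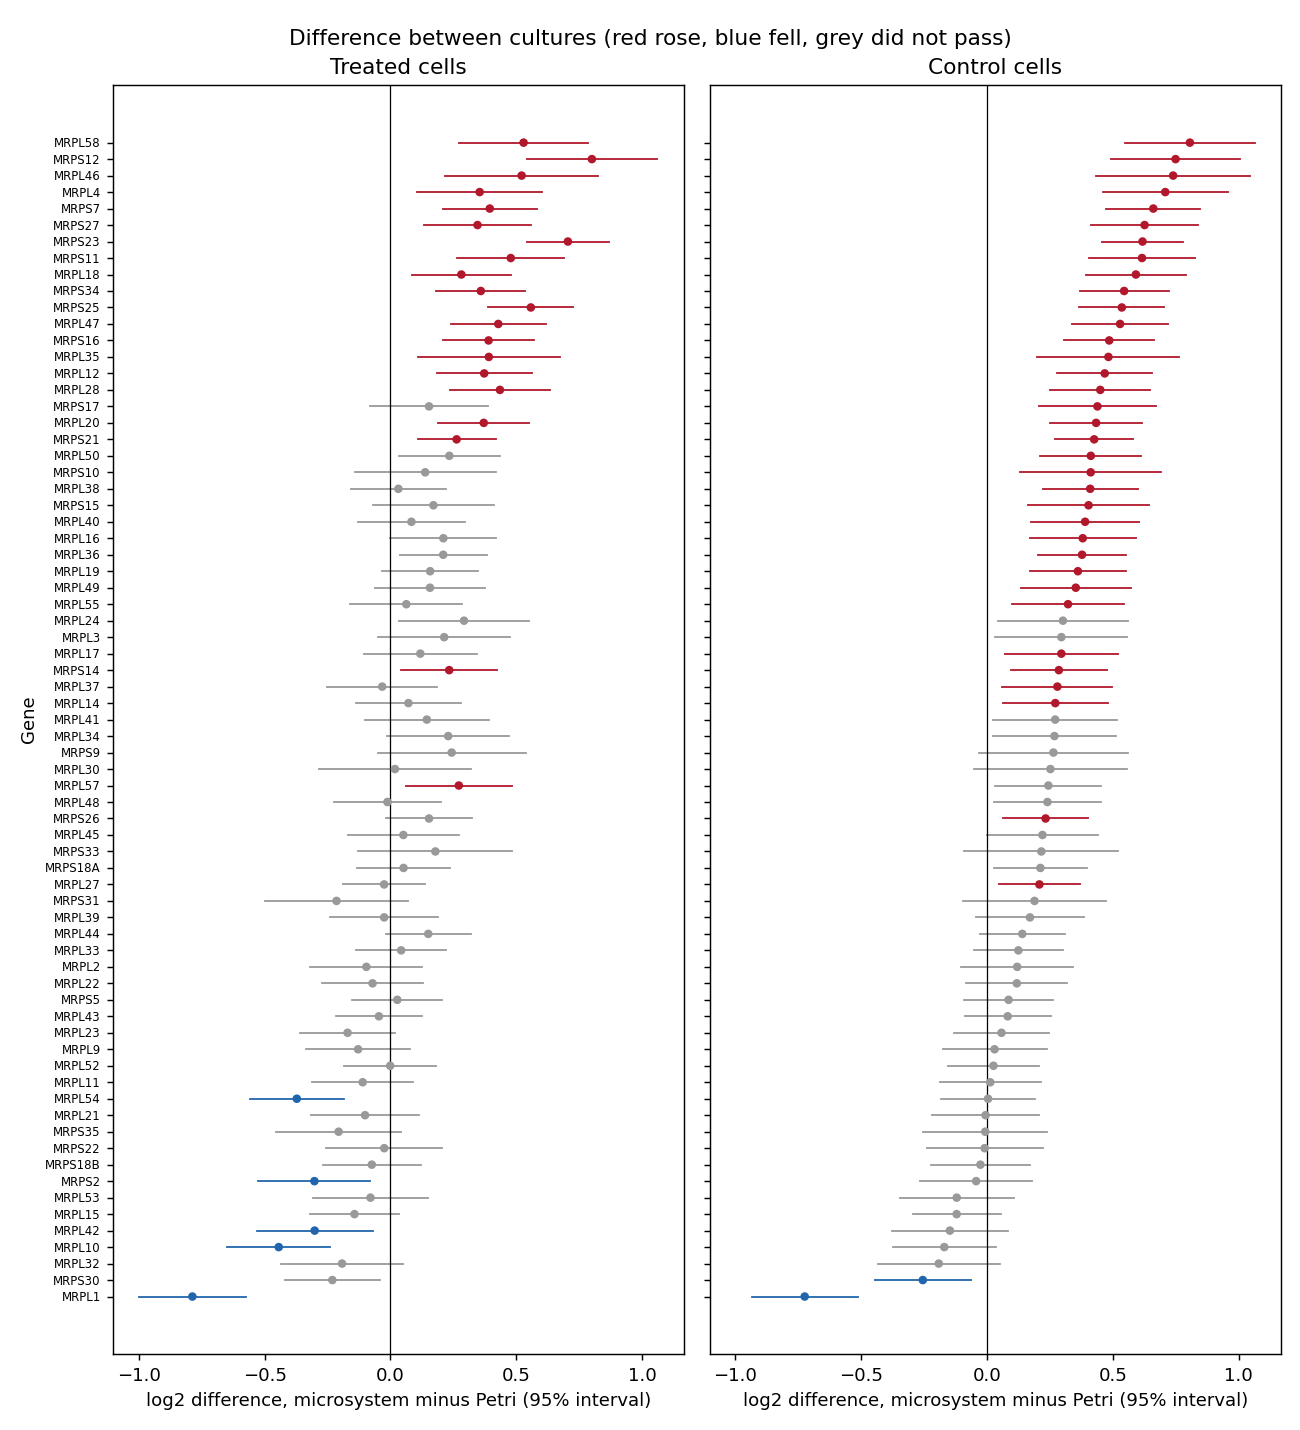
Points are log2 differences between microsystem and Petri dishes for each of 71 genes, with 95% intervals, in treated cells (left) and in controls (right). In controls 35 genes rose (red) and 2 fell (blue), and in treated cells 20 rose and 5 fell.

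The largest rise among treated cells was that of MRPS12. MRPS12 had 7.19, 7.0 and 6.99 in microsystem treated cells, against 6.22, 6.27 and 6.29 in Petri treated cells. Both groups were tight and far apart. The difference was 0.80 ± 0.12 (limma adjusted p = 0.000157), a 1.74-fold rise. MRPS23 (8016870), a mitochondria-specific small subunit protein, had 8.12, 8.09 and 8.07 in microsystem treated cells, against 7.45, 7.35 and 7.38 in Petri treated cells. It rose on every array, by 0.71 ± 0.08 (limma adjusted p = 1.02e-05), and by 0.62 ± 0.08 in controls.

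MRPS25 (8085531), another mitochondria-specific protein of the small subunit, had 7.59, 7.72 and 7.66 in microsystem treated cells, against 7.02, 7.11 and 7.18 in Petri treated cells. The groups were separate, with a difference of 0.56 ± 0.08 (limma adjusted p = 9.43e-05). MRPL58 had 8.13, 7.92 and 8.10 in microsystem treated cells, against 7.32, 7.70 and 7.54 in Petri treated cells, a rise of 0.53 ± 0.12 (limma adjusted p = 0.00302). MRPL46 had 8.52, 8.54 and 8.85 in microsystem treated cells, against 7.94, 8.29 and 8.13 in Petri treated cells. MRPL46 did not overlap between cultures and rose by 0.52 ± 0.14 (limma adjusted p = 0.00946). The other 15 that rose differed by 0.23 to 0.48, and they were MRPL4, MRPL12, MRPL18, MRPL20, MRPL28, MRPL35, MRPL47, MRPL57, MRPS7, MRPS11, MRPS14, MRPS16, MRPS21, MRPS27 and MRPS34.

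MRPL1 again fell furthest. It had 7.12, 7.15 and 7.43 in microsystem treated cells, against 7.91, 8.04 and 8.11 in Petri treated cells. The groups were well apart, with a difference of -0.79 ± 0.10 (limma adjusted p = 3.53e-05). MRPL10 (8016366), the stalk base protein that anchors MRPL12, had 8.34, 8.16 and 8.23 in microsystem treated cells, against 8.52, 8.84 and 8.70 in Petri treated cells. MRPL10 was lower on every microsystem array, by -0.44 ± 0.09 (limma adjusted p = 0.00205).

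MRPL54 (8024708), a mitochondria-specific large subunit protein, had 5.80, 5.50 and 5.72 in microsystem treated cells, against 6.0, 6.02 and 6.11 in Petri treated cells. The difference was -0.37 ± 0.09 (limma adjusted p = 0.00368), while in controls it was 0.00 ± 0.09. MRPS2 (8159249), a small subunit protein with a bacterial counterpart, had 8.06, 7.91 and 8.19 in microsystem treated cells, against 8.25, 8.45 and 8.37 in Petri treated cells. The gap between its groups was small, and the difference was -0.30 ± 0.10 (limma adjusted p = 0.0311). MRPL42 (7957540) had 8.76, 8.88 and 9.15 in microsystem treated cells, against 9.12, 9.28 and 9.29 in Petri treated cells. MRPL42 overlapped between the groups, with a difference of -0.30 ± 0.11 (limma adjusted p = 0.0366). MRPS2 and MRPL42 did not pass without microsystem treated replicate 1 or 2 or Petri treated replicate 2 or 3, with adjusted p-values up to 0.134 for MRPS2 and 0.153 for MRPL42. MRPS30, which fell in controls, differed by -0.23 ± 0.09 here (limma adjusted p = 0.0502). By arrays, 24 genes were higher on every microsystem treated array and 6 lower on every one, while 28.1% and 24.8% of all genes tested were.

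Promoter letters are shown for the 3 largest rises between cultures in controls (MRPL58, MRPS12 and MRPL46), for MRPS23, the second largest in treated cells, and for MRPL1, the largest fall, because nuclear respiratory factor NRF1 and the ETS factor GABPA, also called NRF2, are known to act at promoters of many nuclear genes for mitochondrial proteins. The windows are the 250 bases before a RefSeq transcript start on GRCh38.p14, 5′ to 3′ on the gene's strand. They are chr17:75012420-75012669 (plus) for MRPL58, chr19:38930704-38930953 (plus) for MRPS12 at the second of 2 listed starts, chr17:57850045-57850294 (minus) for MRPS23, chr15:88467389-88467638 (minus) for MRPL46 and chr4:77862580-77862829 (plus) for MRPL1. Capitals mark CCGGAAG, the ETS motif searched, or CTTCCGG, the same motif on the other strand.
MRPL58: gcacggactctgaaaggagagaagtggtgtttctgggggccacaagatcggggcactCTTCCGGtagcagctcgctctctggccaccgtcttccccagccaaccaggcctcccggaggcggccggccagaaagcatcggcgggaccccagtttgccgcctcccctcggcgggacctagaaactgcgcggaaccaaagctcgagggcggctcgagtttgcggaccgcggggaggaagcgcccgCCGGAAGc
MRPS12: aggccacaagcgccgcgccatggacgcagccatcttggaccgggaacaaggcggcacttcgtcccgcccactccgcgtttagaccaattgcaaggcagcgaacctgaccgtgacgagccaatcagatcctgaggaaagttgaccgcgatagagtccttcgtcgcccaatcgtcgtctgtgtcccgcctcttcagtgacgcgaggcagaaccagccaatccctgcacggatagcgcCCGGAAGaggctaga
MRPS23: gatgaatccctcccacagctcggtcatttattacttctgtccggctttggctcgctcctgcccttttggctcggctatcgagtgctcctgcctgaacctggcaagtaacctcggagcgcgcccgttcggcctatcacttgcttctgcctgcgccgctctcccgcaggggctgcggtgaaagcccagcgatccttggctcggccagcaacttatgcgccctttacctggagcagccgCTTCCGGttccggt
MRPL46: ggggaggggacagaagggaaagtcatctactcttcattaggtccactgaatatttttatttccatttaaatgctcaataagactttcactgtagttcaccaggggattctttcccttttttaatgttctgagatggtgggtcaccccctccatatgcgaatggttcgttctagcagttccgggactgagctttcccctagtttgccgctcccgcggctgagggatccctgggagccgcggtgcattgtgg
MRPL1: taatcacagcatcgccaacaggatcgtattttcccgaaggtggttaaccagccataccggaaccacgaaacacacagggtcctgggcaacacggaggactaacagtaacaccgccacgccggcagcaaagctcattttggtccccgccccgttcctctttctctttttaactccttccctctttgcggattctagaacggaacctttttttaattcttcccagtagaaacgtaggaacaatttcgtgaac

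MRPL58 has the ETS letters on both strands, with the CCGGAAG copy close to the start and the other further upstream. MRPS23 has them close to the start, and so has MRPS12 in the window shown, while the window of its first listed start ends earlier and holds no complete ETS match. The MRPL46 window holds none of the motifs searched, and the SP1 letters are in those of MRPL58, MRPS12 and MRPL1. MRPL4 and MRPS7, next in size in controls and not shown, have SP1 letters and no ETS match. Of the 73 genes 66 have a RefSeq promoter entry, and those without one are MRPL2, MRPL10, MRPL13, MRPL15, MRPL21, MRPL23 and MRPL35. Searching both strands, CCGGAAG was in 24 of 66 genes (36.4%) and in 13.9% of 15777 other protein-coding genes. GCGCANGCG, for NRF1, was in 14 (21.2%, against 11.2%), and GATGGCGG, for YY1, in 3 (4.55%, against 1.55%). CACGTG, the E-box of MYC, was in 8 (12.1%, against 9.72%), GGGCGG, for SP1, in 36 (54.5%, against 62.1%), and TATAAA in 2 (3.03%, against 11.9%). By culture response in controls, ETS letters were in 13 of 34 genes that rose and in 10 of 29 that were not called, NRF1 letters in 5 of 34 and 8 of 29, and SP1 letters in 22 of 34 and 13 of 29. E-box letters were in 3 and 4 of these genes, YY1 letters in 1 and 2, and TATA letters in 1 and 1. These counts describe letters in a window and were not tested.

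Many of these genes share their start region with a gene on the other strand. This was so for 16 of 66 (24.2%), against 1746 of 15777 other protein-coding genes (11.1%), counting opposite-strand starts whose 300-base windows overlap. MRPL46 and MRPS11 face each other, and both rose in the microsystem: MRPL46 by 0.74 and MRPS11 by 0.62 in controls, and by 0.52 and 0.48 in treated cells. MRPS27 and PTCD2 rose together in controls, by 0.63 and by 0.66 ± 0.09 (limma adjusted p = 7.62e-05). So did MRPL37 and CYB5RL, by 0.28 and by 0.39 ± 0.14 (limma adjusted p = 0.0302). Other pairs parted. GGA3, across from MRPS7, differed by -0.40 ± 0.08 in controls (limma adjusted p = 0.000907) where MRPS7 rose, and ZNF189 differed by -0.44 ± 0.08 (adjusted p = 0.000907) where MRPL50 rose by 0.41. SARS2, the mitochondrial seryl-tRNA synthetase across from MRPS12, did not pass but had the same sign as MRPS12 in controls. Its difference was 0.32 ± 0.12 (limma adjusted p = 0.0505). Whether paired genes go together was not tested.

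Acetaminophen was compared with no exposure within each culture. In the microsystem most of these genes had lower values with acetaminophen: none rose and 12 of 71 fell (16.9%), while 6.39% of all genes tested rose and 2.67% fell. At an unadjusted limma p under 0.05, 1 was higher and 31 were lower (1.41% and 43.7%, against 14.5% and 11.3% of all genes). The median difference was -0.18, against -0.01 over all genes, and 63 of 71 differences were below 0 (88.7%, against 51.4%). The 12 were 8 of 49 large subunit genes and 4 of 22 small subunit genes. This count rests on few arrays: it was 0 without microsystem treated replicate 2, 1 without microsystem control replicate 2, 4 without microsystem control replicate 3, 5 without Petri control replicate 2 or Petri treated replicate 2, 7 without Petri treated replicate 3 and 19 without microsystem control replicate 1. It was also 5 with array medians set equal, 6 with no filter, and 1 with only the compared arrays fitted or without both microsystem arrays numbered 3. With the replicate number as a block, over all arrays or within each culture, the count was higher than 12. The median stayed between -0.23 and -0.14 with any 1 array left out.

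MRPS27 (8112570) fell furthest. It is a small subunit protein of the pentatricopeptide repeat family, which binds RNA. MRPS27 had 9.42, 9.31 and 9.13 in microsystem treated cells, against 9.61, 9.90 and 9.59 in microsystem controls. Every treated array was below every control. The difference was -0.41 ± 0.10 (limma adjusted p = 0.0202), a 1.33-fold fall. MRPS35 (7954591), a mitochondria-specific small subunit protein, had 8.63, 8.28 and 8.53 in microsystem treated cells, against 8.74, 9.12 and 8.78 in microsystem controls. MRPS35 was lower on every treated array, with a difference of -0.40 ± 0.11 (limma adjusted p = 0.0462). MRPS27 was not called without microsystem control replicate 2 or microsystem treated replicate 2 or 3 (adjusted p up to 0.0801), and MRPS35 without 10 of the 12 arrays (up to 0.186).

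MRPL23 (7937763), a large subunit protein with a bacterial counterpart at the exit of the peptide tunnel, had 8.40, 8.22 and 8.29 in microsystem treated cells, against 8.62, 8.72 and 8.76 in microsystem controls. The groups were separate, and the difference was -0.40 ± 0.09 (limma adjusted p = 0.0139). MRPL54 had 5.80, 5.50 and 5.72 in microsystem treated cells, against 5.97, 6.05 and 6.09 in microsystem controls, a difference of -0.37 ± 0.09 (limma adjusted p = 0.0202). MRPS34 (7998585), a mitochondria-specific small subunit protein, had 8.49, 8.33 and 8.38 in microsystem treated cells, against 8.63, 8.89 and 8.76 in microsystem controls. Both were lower on every treated array, and the difference of MRPS34 was -0.36 ± 0.08 (limma adjusted p = 0.017). MRPL23 was lost without microsystem treated replicate 2 alone (adjusted p = 0.0675), MRPS34 also without microsystem control replicate 2 (up to 0.0763), and MRPL54 without either of these or microsystem control replicate 3 (up to 0.0927). The other 7 that fell were MRPL12, MRPL15, MRPL16, MRPL19, MRPL38, MRPL48 and MRPS5, by -0.36 to -0.28 with limma adjusted p-values of 0.0183 to 0.0485. Of the 12 genes, 6 were among those that rose in the microsystem in controls, while 35 of all 71 genes rose there (49.3%). Both comparisons use the microsystem control arrays, with opposite sign, so they are not independent. By arrays, 22 genes were lower on every microsystem treated array and 1 higher, while 12.4% and 15.2% of all genes tested were.

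In Petri dishes 1 gene rose and 2 fell of 71, while 8.38% of all genes tested rose and 1.98% fell. The median difference was -0.03, against 0.01 over all genes. Whether the replicate numbers pair samples is not known. With the replicate number as a block within each culture 3 genes rose (MRPL18, MRPL49 and MRPS31) and 2 fell. Each of the 3 calls made without the block was lost when some single array was left out: the rise of MRPL49 without Petri control replicate 1 or 2 or Petri treated replicate 2 or 3, and both falls without Petri control replicate 1 or 2 or Petri treated replicate 1 or 3. The highest adjusted p-values then were 0.0867 for MRPL49, 0.0759 for MRPL15 and 0.156 for MRPS30, and MRPS30 was not called without 8 of the 12 arrays. Petri treated replicate 3, whose label carries the asterisk, is among the arrays whose removal ended each of the 3 calls. Counts also moved with the scaling, the filter and the weights: 2 rose and 1 fell after medians of the arrays were made equal, with no filter 1 rose and 1 fell, and with array weights 4 rose and 4 fell.

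MRPL49 (7941164), a mitochondria-specific large subunit protein, was the gene that rose. It had 8.57, 8.89 and 8.71 in Petri treated cells, against 8.23, 8.23 and 8.42 in Petri controls. The groups did not overlap, and the difference was 0.43 ± 0.10 (limma adjusted p = 0.0168), a 1.35-fold rise. In the microsystem MRPL49 had 8.90, 8.88 and 8.86 in treated cells, against 8.53, 8.58 and 8.82 in controls, with a difference of 0.23 ± 0.10 that did not pass (limma adjusted p = 0.165).

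MRPL15 (8146448), a large subunit protein with a bacterial counterpart, fell in both cultures. MRPL15 had 7.02, 7.12 and 7.06 in Petri treated cells, against 7.41, 7.42 and 7.36 in Petri controls, a difference of -0.33 ± 0.08 (limma adjusted p = 0.0213). In the microsystem it had 6.97, 6.87 and 6.93 in treated cells, against 7.12, 7.30 and 7.41 in controls, a difference of -0.35 ± 0.08 (limma adjusted p = 0.0183). Treated arrays were below controls throughout in either culture. The microsystem call of MRPL15 was lost without microsystem treated replicate 2 or microsystem control replicate 2 or 3 (adjusted p up to 0.0778). MRPS30 had 8.16, 8.22 and 8.34 in Petri treated cells, against 8.50, 8.63 and 8.50 in Petri controls, a difference of -0.30 ± 0.09 (limma adjusted p = 0.0432). In the microsystem its difference was -0.28 ± 0.09 and did not pass (limma adjusted p = 0.0638). By arrays, 13 genes were lower on every Petri treated array and 5 higher, while 13.5% and 21% of all genes tested were.

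**Figure D3:**
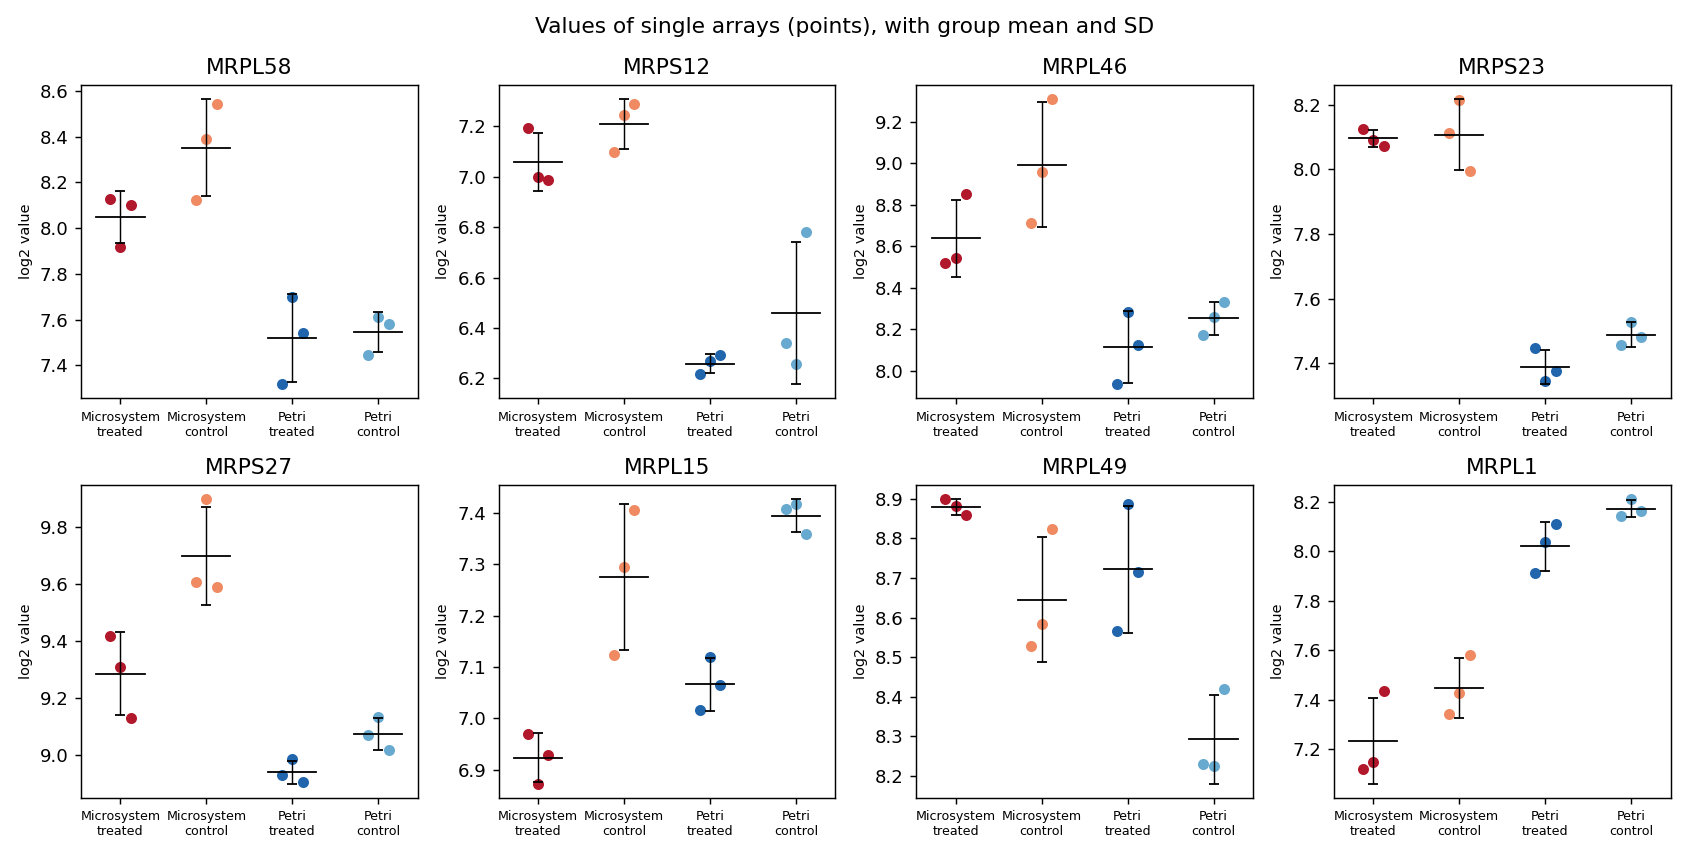
Points are log2 values of single arrays for 8 genes in the 4 groups, with the group mean and SD (n = 3 each). MRPL58, MRPS12, MRPL46 and MRPS23 are higher in the microsystem, MRPL1 is lower there, and MRPL15 is lower with acetaminophen in both cultures.

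Whether acetaminophen acted differently in the microsystem and in Petri dishes was tested as the difference of the treatment effects (microsystem minus Petri). None of the 71 genes passed in limma, while 0.00758% of all genes tested rose and 0.0227% fell. At an unadjusted limma p under 0.05, 0 were higher and 9 were lower (12.7%), against 2.82% and 4.53% of all genes. The median was -0.16, against -0.03 over all genes, and 64 of 71 values were below 0 (90.1%, against 56.3% of all genes). The smallest adjusted p was that of MRPL54, with -0.38 ± 0.12 (limma adjusted p = 0.447). So the 12 genes that fell in the microsystem were not shown to respond differently there: 10 of them also had a lower value in Petri treated cells, and their Petri differences ran from -0.33 to 0.08. Across the 71 genes the treatment effects in the 2 cultures, which share no array, had r = 0.675, and 48 of 71 had the same sign. The r and the share of equal signs were not computed over all genes tested.

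**Figure D4:**
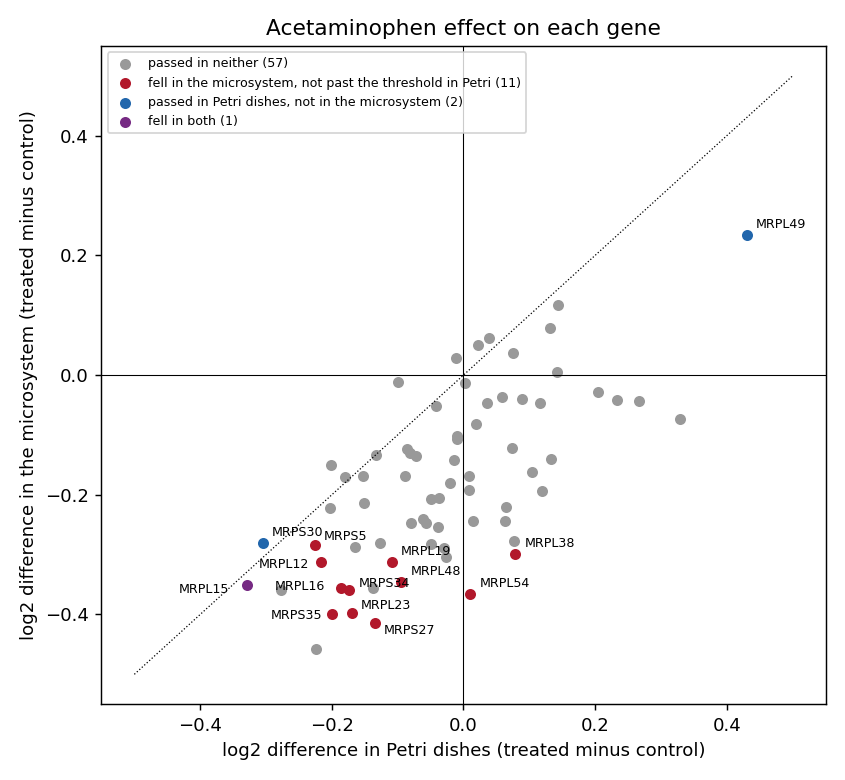
Each point is 1 of 71 genes, with the log2 treatment difference in Petri dishes on the horizontal axis and in the microsystem on the vertical axis; the dotted line marks equal effects. Most points lie below the line, 12 genes fell in the microsystem, and MRPL15 fell in both cultures.

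The genes named whatever their values gave no other call in either treatment comparison beyond those of MRPL12 and MRPS30. MRPL3 differed by -0.36 ± 0.12 in the microsystem (limma adjusted p = 0.0819) and by -0.28 ± 0.12 in Petri dishes (adjusted p = 0.165). MRPS12 differed by -0.15 in the microsystem and -0.20 in Petri dishes, and MRPL37 by -0.19 and 0.12. MRPS2 (-0.24 in the microsystem), MRPS18A (-0.18) and MRPL41 (-0.14) also did not pass.

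Genes that build, feed and regulate the mitochondrial ribosome were listed by function. These counts are to be set beside those over all genes tested, of which 26.5% rose and 18.3% fell between cultures in controls, and 22.6% rose and 18.9% fell in treated cells. Of 30 tested assembly factors, 15 rose in the microsystem in controls (50%) and none fell, and in treated cells 15 rose and 1 fell. MPV17L2, a protein of the inner membrane needed for ribosome assembly, had the largest difference of them in controls (1.46 ± 0.09, limma adjusted p = 1.95e-07), followed by TRUB2 (1.11), a pseudouridine synthase, and TFB1M (1.01), which methylates the small subunit rRNA. Of 14 translation factors 9 rose in controls (64.3%) and 9 in treated cells, and none fell. They include GUF1, the mitochondrial elongation factor 4 homolog (1.02 ± 0.09, limma adjusted p = 2.36e-06), and MTFMT, which formylates the initiator tRNA (0.98 ± 0.10). Of 16 aminoacyl-tRNA synthetases 8 rose (50%) and 2 fell in controls, and 4 rose and 2 fell in treated cells, where the share that rose (25%) was near that of all genes. VARS2 rose in controls by 0.78 and MARS2 by 0.69.

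Of 19 genes of mitochondrial transcription and RNA processing 13 rose in controls (68.4%, against 26.5% of all genes) and none fell. Among those that rose were PRORP (0.78), ELAC2 (0.75) and TRMT10C (0.65), which take part in releasing tRNAs from the primary transcript. In treated cells 9 rose (47.4%, against 22.6%) and 1 fell. Of 9 regulators of mitochondrial biogenesis none rose and 5 fell in controls (55.6%, against 18.3% of all genes), and none rose and 4 fell in treated cells (44.4%, against 18.9%). In either culture comparison 2 of the 9 differences were above 0, among them GABPA in controls (0.13 ± 0.10, limma adjusted p = 0.344). In controls MYC differed by -0.67 ± 0.14 (limma adjusted p = 0.00139), the coactivator PPARGC1A by -0.64 ± 0.12 (adjusted p = 0.00058) and GABPB1, the partner of GABPA, by -0.64 ± 0.19 (adjusted p = 0.0137). Of ribosome subunit genes with other symbols, 2 of 4 tested rose in controls, CHCHD1 by 0.31 ± 0.10 (limma adjusted p = 0.0177) and PTCD3 by 0.31 ± 0.08 (adjusted p = 0.00564).

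With acetaminophen few of these passed, in the microsystem, where 6.39% of all genes rose and 2.67% fell, and in Petri dishes, where 8.38% rose and 1.98% fell. In the microsystem genes that fell were CLPP, a protease subunit (-0.38 ± 0.09, limma adjusted p = 0.0183), MARS2 (-0.38 ± 0.09, adjusted p = 0.0218), TFB2M, a transcription initiation factor (-0.42 ± 0.09, adjusted p = 0.0123), TBRG4 (-0.32 ± 0.09, adjusted p = 0.0492) and ESRRA (-0.33 ± 0.10, adjusted p = 0.0489). MTERF2 rose there (0.39 ± 0.10, limma adjusted p = 0.0345). In Petri dishes MPV17L2 (0.46 ± 0.09, limma adjusted p = 0.00678) and AARS2 (0.40 ± 0.10, adjusted p = 0.0267) rose. TFB2M (-0.36 ± 0.09, limma adjusted p = 0.0219) and MYC (-0.48 ± 0.14, adjusted p = 0.0411) fell there.

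Cytosolic ribosomal protein genes were mostly lower in the microsystem. Of 59 tested none rose and 22 fell in controls (37.3%, against 18.3% of all genes, with a median of -0.19), and none rose and 40 fell in treated cells (67.8%, against 18.9%, with a median of -0.27). The respiratory chain list, taken by symbol, also includes ATP synthase genes. Of its 72 genes, all encoded in the nucleus, 20 rose and 4 fell in controls (median 0.10), and 13 rose and 5 fell in treated cells (median 0.03). The share that rose, 27.8% in controls and 18.1% in treated cells, was near that of all genes tested (26.5% and 22.6%), and the share that fell, 5.56% and 6.94%, was below theirs (18.3% and 18.9%). With acetaminophen in the microsystem 4 cytosolic ribosomal protein genes fell (6.78%, median -0.16) and 5 respiratory chain genes fell (6.94%, median -0.13), against 2.67% of all genes. None of either list rose, against 6.39% of all genes. In Petri dishes, where 8.38% of all genes rose and 1.98% fell, none of the cytosolic genes passed (median -0.08), and 1 respiratory chain gene rose and 2 fell (median -0.03). The differences between these lists were not tested.

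**Figure D5:**
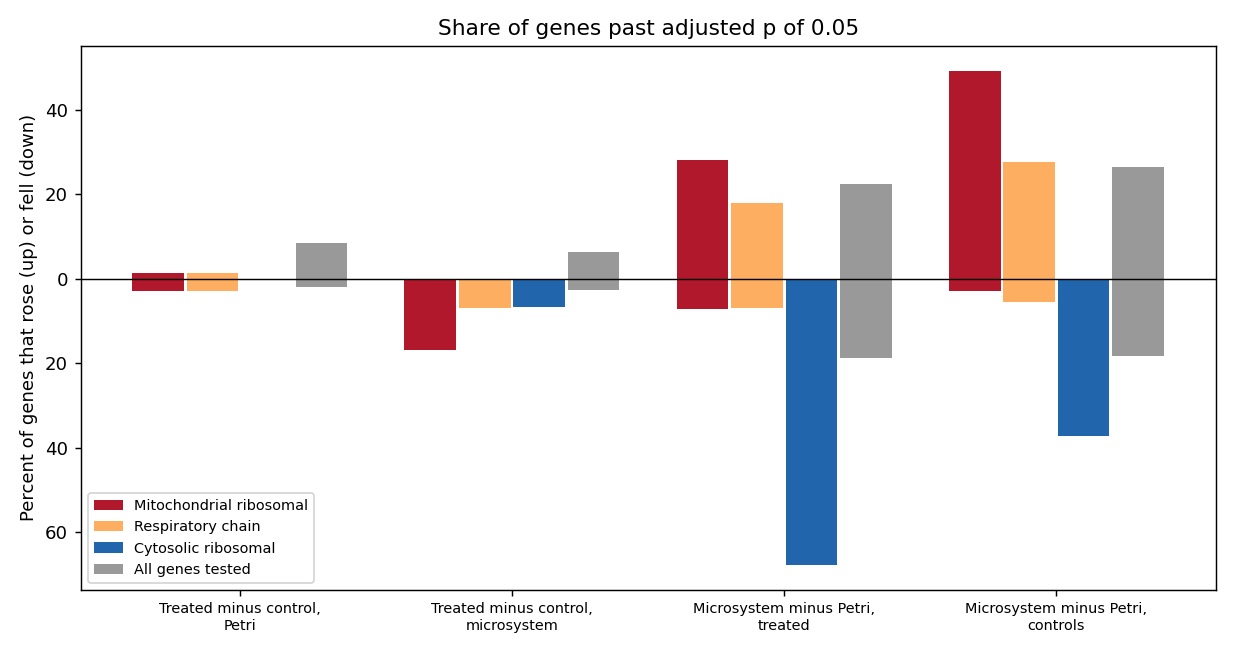
Bars give the percent of genes that rose (upward) or fell (downward) in 4 comparisons. Shown are mitochondrial ribosomal, respiratory chain (with ATP synthase) and cytosolic ribosomal genes and all genes tested. In controls 49.3% of the mitochondrial ribosomal genes rose between cultures, and 37.3% of the cytosolic ones fell.

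The 2 genes that the filter removed were MRPL13 and MRPS18C. MRPL13 averaged 4.87 ± 0.11 in microsystem treated cells, 4.87 ± 0.28 in microsystem controls, 4.53 ± 0.16 in Petri treated cells and 4.41 ± 0.19 in Petri controls (SD, n = 3 each). MRPS18C averaged 4.74 ± 0.20 in microsystem treated cells, 4.68 ± 0.14 in microsystem controls, 4.61 ± 0.11 in Petri treated cells and 4.58 ± 0.09 in Petri controls. Both were low on every array, and no difference was tested for them.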

How the data were processed

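The authors deposited 1 log2 intensity for each probe set. The submitters' processing notes name RMA and Affymetrix Expression Console, without versions. No further normalization was applied. In the platform annotation 19158 probe sets had 1 symbol, 1388 several and 11775 none. Of those with 1 symbol, 19128 had an Entrez ID that matched the RefSeq gene annotation. The RefSeq symbol was used for these, and the platform symbol otherwise. In all, 5 probe sets with several symbols that include an MRPL or MRPS name were left out. They carry MRPL51, MRPS6, MRPS24 or MRPS28, except 8139256, which is listed for the readthrough URGCP-MRPS24 and URGCP. The highest-mean probe set stood for a gene. A gene was tested where at least 3 arrays exceeded their own 40th percentile. The number of arrays limits the precision, and an exact permutation of 3 against 3 arrays cannot go below p = 0.1.

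All 12 arrays entered 1 fit with a mean for each group, made with limma 3.58.1 (R 4.3.3), with 8 residual and 5.35 prior degrees of freedom. Tests were two-sided, with Benjamini-Hochberg adjustment over 13199 genes. Errors on differences are moderated standard errors. The procedure was tested on simulated data. data.table (version 1.17.8), Python 3.11.15, pandas 2.3.3 and matplotlib 3.10.9 were also used.

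The members, gene lists, roles and motifs were chosen with earlier results of these data known. Per comparison, the 5 largest rises and falls past the threshold were named with every value, plus MRPL3, MRPL12, MRPL41, MRPL37, MRPS2, MRPS12, MRPS30 and MRPS18A whatever their values, and up to 3 genes past the threshold of each list. The genes with the highest and lowest mean level, which the rule also takes, are not named, since levels of different probe sets are not comparable. Deviations from group means of same-numbered treated and control arrays correlated at r of 0.48, 0.19 and 0.31 in Petri dishes. In the microsystem the correlations were 0.11, 0.07 and 0.60. Arrays of different number were not correlated in this way, so these values do not settle whether the numbers pair samples in either culture. The main fit did not pair any arrays. Its differences, errors and p-values are unpaired, and the replicate number entered only as a block among the alternatives. Alternatives covered the scaling (quantile, equal array medians), the filter (none, or the 60th percentile), averaging the probe sets of a gene, array weights, fitting only the compared arrays, a block for the replicate number, and arrays left out.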

Additional observations from a re-analysis of the deposited data

How the results depend on the processing

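With 1 array left out, 28 to 42 genes rose and 1 to 2 fell between cultures in controls, and 15 to 21 rose and 3 to 7 fell in treated cells. With acetaminophen 0 to 19 fell in the microsystem, and in Petri dishes 0 to 1 rose and 0 to 2 fell. Without microsystem control replicate 1 or Petri control replicate 2, 1 gene fell between cultures in controls. Without microsystem treated replicate 1 or 2, or Petri treated replicate 2 or 3, 3 fell between cultures in treated cells. Without Petri control replicate 3, Petri treated replicate 2, microsystem control replicate 2 or microsystem treated replicate 1, 1 gene fell with acetaminophen in Petri dishes. Of the calls, all 3 in Petri dishes and all 12 in the microsystem were lost when some array was left out, against 10 of 37 between cultures in controls and 8 of 25 in treated cells. Counts between cultures moved by less than 1.5 times under every other alternative run.

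With a replicate block over all arrays 2 genes rose in Petri dishes, and with the block within each culture 3 did; 17 genes fell in the microsystem with either block. The block within each culture cannot be set up for differences between cultures. After array medians were made equal, 5 genes fell in the microsystem, and in Petri dishes the counts were 2 higher and 1 lower. With no filter 1 fell in Petri dishes and 6 in the microsystem. With array weights 4 rose and 4 fell in Petri dishes. With only the arrays compared, or without both microsystem arrays numbered 3, 1 gene fell in the microsystem. The cause of these changes was not tested.

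Of the genes named, 5 differences changed sign, none of them called. MRPS2 in Petri dishes gave -0.039 with quantile normalization, -0.015 without Petri control replicate 1, and -0.031 without Petri control replicate 2 or Petri treated replicate 2. MRPL41 there gave 0.026 with equal medians, 0.036 with array weights, 0.0015 without Petri control replicate 3 and 0.051 without Petri treated replicate 1. MRPS18A there gave 0.021, 0.0084 and, without Petri control replicate 1, 0.023. Between cultures in controls MRPS2 gave 0.017 with array weights, 0.035 without microsystem control replicate 1 and 0.033 without Petri control replicate 3. In treated cells MRPL37 gave 0.017 without microsystem treated replicate 2 and 0.0079 without Petri treated replicate 3. Over all arrays left out in turn, these differences ran from -0.031 to 0.091 (MRPS2), -0.093 to 0.051 (MRPL41) and -0.052 to 0.023 (MRPS18A) in Petri dishes, -0.089 to 0.035 (MRPS2) in controls and -0.10 to 0.017 (MRPL37) in treated cells.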
